A study of Mus musculus with 18 samples.

Results

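Imprinted genes were followed in the ventral dentate gyrus of adult male mice. They were taken from a list of 41 symbols of the known mouse imprinted domains. The count files held 40 of the 41, among 34620 genes in all, and 36 of these had enough reads to be tested. Of the remaining genes, H19, Phlda2, Asb4 and Calcr had at most 12 reads in any library, and Kcnq1ot1 was not analysed here.

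An imprinted gene is expressed mainly from the copy inherited from the mother or mainly from the copy inherited from the father. The difference is set by DNA methylation laid down in the egg or the sperm at imprinting control regions and kept in the embryo by the KRAB zinc finger protein Zfp57 and its partners. Imprinted genes lie in clusters that often pair protein-coding genes with long noncoding RNAs, and many of them are known for roles in growth, in maternal behaviour and in the development of the brain. A read count per gene sums both parental copies, so the allele behind a level was not measured here.

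All mice were Swiss Webster males of 8 to 12 weeks that carried WT copies of the serotonin 1A receptor gene. WT males had WT mothers and grandmothers and belonged to a lineage bred in parallel. F1 males were the WT sons of 5HT1A-/+ mothers, from crosses in which both parents were heterozygous. F2 males were the sons of WT F1 females and control WT males, so that their grandmothers and not their mothers were 5HT1A-/+. The polyA RNA of microdissected tissue was sequenced in 2 libraries per group, and the number of animals behind a library is not given in the sources used here, so that p-values measure the spread between these libraries. Levels are given as CPM, counts relative to the TMM-scaled size of the library. A difference was called at q under 0.01, the p-value of the exact test in edgeR after Benjamini-Hochberg correction over 17421 genes. F1 and F2 were both compared with the same WT libraries.

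Between 26358165 and 33727936 reads per library fell on genes. The granule neuron markers of the tissue were present in every library, with Prox1 between 228 and 345 CPM and Calb1 between 265 and 392 CPM. Of the 8 markers, Trpc6 fell in F1 and F2, with 102 and 72.1 CPM in WT and 42.9 to 54.4 CPM in the others. Of 8 choroid plexus markers 4 were under 1 CPM in every library, and Ttr, the defining transcript of that tissue, reached at most 1.10 CPM. Otx2 reached at most 1.225 CPM, whereas Kl had 13.6 to 18.7 CPM and Prlr 1.98 to 3.66 CPM. Htr1a itself had log2 fold changes of -0.18 in F1 and 0.20 in F2 (adjusted p = 0.332 and 0.266 by edgeR). Reads that aligned to the genome but did not lie wholly within annotated exons were counted to no gene. They amounted to 22.0% and 26.5% of the gene reads in WT, 16.3% and 14.2% in F1, and 16.4% and 21.5% in F2.

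Most called differences from WT were in the noncoding RNAs of the Dlk1-Meg3 domain. In F1, Meg3 and Mirg fell and Trappc9 rose, and in F2, Meg3, Rian and Mirg fell. These were 3 of 36 genes in each comparison, while 12.3% of all genes tested were called in F1 and 12% in F2. The share of called genes was therefore not above that of all genes. Both F1 and F2 differed from WT in the same direction at 2 of the 36, Meg3 and Mirg, beside 7.67% of all genes, and both were lower, as were 6.07%. The median log2 fold change of the 36 was 0.045 in F1 and 0.099 in F2, beside 0.0094 and -0.00035 over all genes tested.

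**Figure D1:**
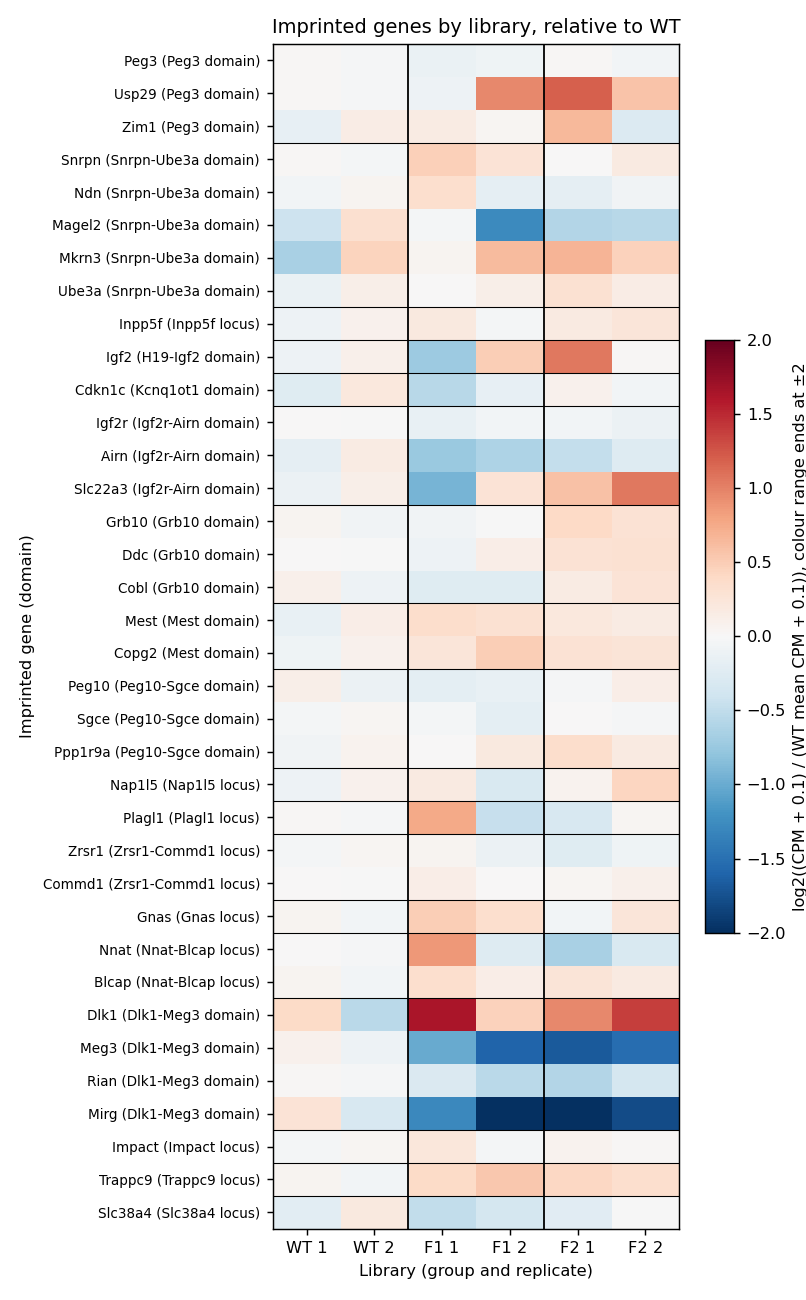
Levels of the 36 tested imprinted genes (rows, with the domain in parentheses, separated by lines) in the 6 libraries (columns, group and replicate). Colour gives log2 of CPM + 0.1 relative to the WT mean + 0.1, with red above and blue below WT. Meg3 and Mirg are blue in all F1 and F2 libraries, whereas most rows are pale or differ between replicates.

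The Dlk1-Meg3 domain of chromosome 12 holds the protein-coding genes Dlk1, a transmembrane relative of the Notch ligands, and Rtl1, both expressed from the paternal copy. On the maternal copy the noncoding RNAs Meg3, Rian and Mirg are read in the same direction, and they are commonly regarded as parts of 1 long transcription unit that carries snoRNAs and a large cluster of miRNAs. In mm9, Meg3 extends from 110779211 to 110809936 on the plus strand, Rian from 110842155 to 110899919 and Mirg from 110973191 to 110987665. The start of Meg3 is printed because it is where the domain's lowered transcripts begin, and the start of Peg3 because it holds the same cAMP response element in a gene with no called difference. Both windows run from 250 bases before to 50 bases after the start, were taken from RefSeq's promoter table, and were placed in mm9 by exact match, at chr12:110778956-110779255 on the plus strand for Meg3 and chr7:6683081-6683380 on the minus strand for Peg3. Capitals mark the cAMP response element TGACGTCA, which binds the transcription factor CREB, and the hexamer TGCCGC, the motif that Zfp57 binds when it is methylated, which Meg3 holds on the opposite strand as GCGGCA.
Meg3 promoter: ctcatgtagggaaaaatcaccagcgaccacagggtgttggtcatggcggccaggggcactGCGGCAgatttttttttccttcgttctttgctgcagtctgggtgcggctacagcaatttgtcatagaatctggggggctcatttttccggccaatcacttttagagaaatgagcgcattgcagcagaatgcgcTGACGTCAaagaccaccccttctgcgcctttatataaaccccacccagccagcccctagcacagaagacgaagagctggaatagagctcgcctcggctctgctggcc
Peg3 promoter: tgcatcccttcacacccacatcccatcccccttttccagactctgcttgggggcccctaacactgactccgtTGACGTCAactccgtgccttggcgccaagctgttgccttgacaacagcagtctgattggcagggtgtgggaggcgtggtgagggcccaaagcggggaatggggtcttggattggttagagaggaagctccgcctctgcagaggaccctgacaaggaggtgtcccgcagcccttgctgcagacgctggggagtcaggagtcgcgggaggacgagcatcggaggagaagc

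Read on both strands, the cAMP response element was found in 1.79% of the 32851 RefSeq windows and in 3 of the 55 windows of imprinted genes, 1 each of Meg3, Peg3 and Usp29. The window of Usp29 shares 263 bases with that of Peg3 on the other strand, so the 2 hold the same copy of the element. The Zfp57 hexamer, which contains a CpG, stood in 11.6% of all windows and in 13 of the 55, which belonged to 12 genes, among them Meg3, Mest, Plagl1, Snrpn and Nnat. The windows of imprinted genes held a median of 13 CpG, beside 7 over all windows. Of these 12 genes, Meg3 was the only one with a called difference, beside 12.3% of all genes called in F1 and 12% in F2. Calcr, also among the 12, had too few reads to be tested. The motif matches are letters in a window, and binding was not measured.

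Meg3, a nuclear RNA, had the highest count of the imprinted genes. It stood at 2667 and 2340 CPM in the WT libraries, at 1240 and 825 CPM in F1, and at 783 and 867 CPM in F2. All 4 F1 and F2 libraries were below both WT libraries by a wide margin. Its level fell by 58.8% in F1 (log2 fold change -1.28, SE 0.17, adjusted p = 7.17e-12 by edgeR) and by 67.1% in F2 (log2 fold change -1.60, SE 0.17, adjusted p = 7.88e-18 by edgeR). The F1 replicates lay further apart than those of WT or F2. Between F2 and F1 the log2 difference was -0.32 (SE 0.17, adjusted p = 0.590 by edgeR).

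Mirg, the noncoding RNA at the far end of the domain whose gene overlaps miRNA hairpins, had 39.9 and 26.4 CPM in WT, 13.5 and 7.74 CPM in F1, and 6.47 and 9.54 CPM in F2. Both WT libraries were well above the F1 and F2 libraries. Its log2 fold change was -1.64 in F1 (SE 0.27, adjusted p = 1.45e-07 by edgeR) and -2.05 in F2 (SE 0.27, adjusted p = 4.17e-11 by edgeR). Both Meg3 and Mirg were called in F1 and in F2 under all 17 alternatives tried, leaving out any single library included.

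Rian, between Meg3 and Mirg and the host of a cluster of snoRNAs, differed less. Its libraries had 604 and 582 CPM in WT, 487 and 408 CPM in F1, and 396 and 466 CPM in F2. Again no F1 or F2 library reached WT. The fall was 27.4% in F2 (log2 fold change -0.46, SE 0.13, adjusted p = 0.00427 by edgeR), and in F1 the log2 fold change of -0.41 (SE 0.13, adjusted p = 0.0139 by edgeR) missed the threshold. The call in F2 was lost without WT replicate 1 (log2 fold change -0.43, adjusted p = 0.0741 by edgeR), without WT replicate 2 (log2 fold change -0.48, adjusted p = 0.0284 by edgeR) and without F2 replicate 1 (-0.34, adjusted p = 0.213 by edgeR). In all, it was lost under 7 of 17 alternatives, the quasi-likelihood test and the counts without a filter among them.

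Dlk1 was scarce, with 28 and 11 reads in WT, 63 and 27 in F1, and 34 and 47 in F2. In CPM this was 0.824 and 0.387 in WT, 2.08 and 0.874 in F1, and 1.27 and 1.75 in F2. All F1 and F2 libraries were above both WT libraries, F1 replicate 2 by little. The log2 fold changes of 1.26 (SE 0.47) and 1.29 (SE 0.47) did not pass q under 0.01 (adjusted p = 0.0387 and 0.0385 by edgeR). Single libraries decided its values: in F1 the log2 fold change was 1.75 without F1 replicate 2 (adjusted p = 0.00120 by edgeR), 0.51 without F1 replicate 1 (adjusted p = 0.550 by edgeR) and 0.85 without WT replicate 2 (adjusted p = 0.388 by edgeR). In F2 it was 0.88 without WT replicate 2 (adjusted p = 0.369 by edgeR), and it passed the threshold without either F1 library (adjusted p = 0.00820 and 0.00663 by edgeR).

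Rtl1, a retrotransposon-derived gene of the same interval, was examined from a list of other imprinted genes. It had 11.47 and 11.48 CPM in WT, 5.12 and 2.59 CPM in F1, and 3.63 and 2.97 CPM in F2, and it fell in both (log2 fold change -1.57 in F1 and -1.80 in F2, adjusted p = 1.07e-06 and 3.20e-08 by edgeR). Rtl1 lies on the minus strand, and the library kit does not mark strand, so its reads cannot be told from those of antisense RNA from the maternal transcription unit.

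**Figure D2:**
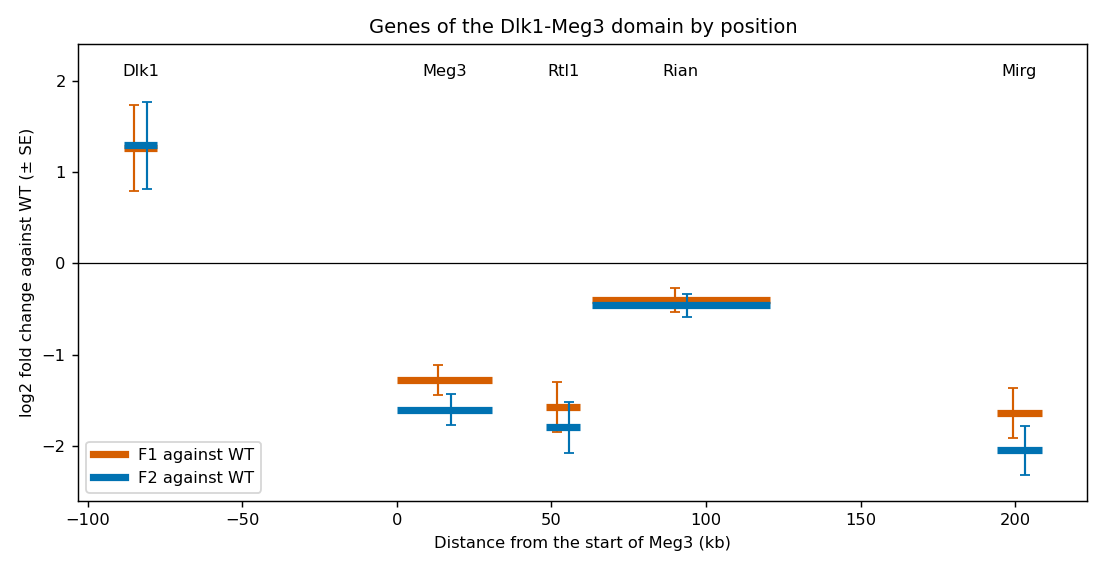
Log2 fold change against WT (vertical axis) of the genes of the Dlk1-Meg3 domain by distance from the start of Meg3 in kb (horizontal axis). Thick bars span each gene and thin bars are ± SE, for F1 (orange) and F2 (blue). Meg3, Rtl1 and Mirg lie between -1.28 and -2.05, Rian near -0.4, and Dlk1 above 0.

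Exons of Meg3 contain the hairpin of miR-770 and share 80 bases with that of miR-1906-1. Exons of Mirg share 68 and 81 bases with the hairpins of miR-377 and miR-410. With those of miR-412 and miR-369 they share only 12 and 1. Reads that fit both the host and the hairpin were dropped by the counting, and mature miRNAs are too short for these libraries, so their levels were not measured. Apart from miR-1906-1, mature sequences from RefSeq are given because they are the products read from the lowered transcripts. The seed (bases 2 to 8) is in capitals.
mmu-miR-770-5p: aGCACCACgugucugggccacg
mmu-miR-770-3p: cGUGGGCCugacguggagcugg
mmu-miR-377-3p: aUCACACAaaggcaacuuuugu
mmu-miR-412-3p: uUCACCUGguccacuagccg
mmu-miR-369-3p: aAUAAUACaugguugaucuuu
mmu-miR-410-3p: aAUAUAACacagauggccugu
No 2 of the 10 mature miRNAs of the miR-770, miR-377, miR-412, miR-369 and miR-410 hairpins, both arms counted, share a seed.

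Of the called imprinted genes, all but Trappc9 were noncoding. The 4 noncoding members that could be tested, Meg3, Rian, Mirg and Airn, had negative log2 fold changes in both F1 and F2, with medians of -1.0 and -1.03, and all F1 and F2 libraries below both WT libraries, a pattern found in 23.7% of all genes tested. Airn, the long noncoding RNA that silences Igf2r on the paternal copy in many tissues, was at 1.27 and 1.62 CPM in WT, 0.825 and 0.907 CPM in F1, and 1.01 and 1.19 CPM in F2 (log2 fold change -0.73 and -0.38, adjusted p = 0.110 and 0.497 by edgeR). Among the 32 coding members, 1 was called in F1 and 0 in F2, beside 12.3% and 12% of all genes tested. Of the 32, 6 and 7 had an unadjusted p under 0.05 by edgeR's exact test. So did at least 3623 and 3606 of the 17421 genes, which passed an adjusted p under 0.05. The quasi-likelihood test called 0 in both, beside 1029 and 997 genes in all. DESeq2 called 3 in F1 and 0 in F2, beside 1635 and 1634 genes in all.

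Some other nuclear long noncoding RNAs were lower in the same libraries. Malat1, Neat1, Snhg11 and Miat, a list of 4, were all called lower in F1 and in F2, as were 6.07% of all genes. This list was chosen with earlier results of these data known, so its calls do not describe such RNAs in general. The 4 summed to 4971 and 5056 CPM in WT, 2347 and 1984 CPM in F1, and 2060 and 2269 CPM in F2. Malat1 had log2 fold changes of -1.27 and -1.27 (adjusted p = 9.80e-19 and 2.65e-18 by edgeR), close in size to Meg3 in F1. The share of reads not wholly within annotated exons was lower in all F1 and F2 libraries than in both WT libraries. In F2 replicate 2 it was lower by little, at 21.5% beside 22.0% in WT replicate 1. The 4 RNAs were lower alongside Meg3 and Mirg, and this share less evenly so. The part of the 4 RNAs and of this share in the fall of Meg3 and Mirg was not tested. In tissue, fewer cells of a type and less RNA per cell cannot be told apart.

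**Figure D3:**
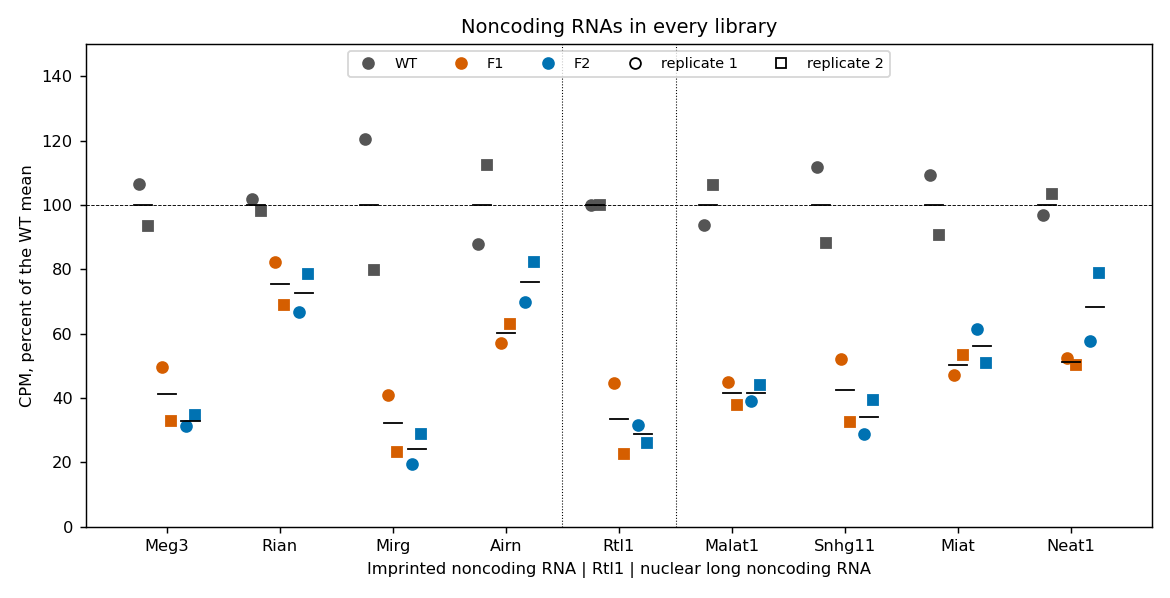
CPM of each library as a percent of the WT mean (vertical axis) for the 4 imprinted noncoding RNAs, for Rtl1 and for 4 nuclear long noncoding RNAs that are not imprinted (horizontal axis, separated by dotted lines). Circles are replicate 1, squares replicate 2 and black bars group means, with points in grey for WT, orange for F1 and blue for F2. All F1 and F2 points lie under the WT points of the same RNA, and Rian and Airn lie closest to WT.

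The listed members expressed from the paternal copy showed no called difference. Of 18 tested, 0 were called in F1 and 0 in F2, while 12.3% and 12% of all genes tested were. Of the 18, 4 and 2 had an unadjusted p under 0.05 by edgeR's exact test, beside at least 3623 and 3606 of the 17421 genes. The quasi-likelihood test called 0 in both, beside 1029 and 997 genes in all. DESeq2 called 1 in F1 and 0 in F2, beside 1635 and 1634 genes in all. The lowest log2 fold change among them was -0.73 in F1 and -0.59 in F2, and the highest, of Dlk1, was 1.26 and 1.29. Rtl1, a paternally expressed gene outside these 18, was called lower in F1 and F2, with the limit on strand given above. Of 13 genes expressed from the maternal copy, 3 were called in each comparison, beside 12.3% and 12% of all genes tested. All but Trappc9 were the noncoding RNAs of the Dlk1-Meg3 domain. These 13 were not tested against the 18 of the paternal copy. The allele of some of these genes depends on the tissue or is less certain than that of the others, as for Cobl, Copg2, Commd1, Slc22a3, Trappc9 and Igf2r. With these counted as maternal, the 10 maternally expressed coding genes had median log2 fold changes of 0.07 in F1 and 0.25 in F2. The 5 genes whose imprinting depends on promoter, tissue or isoform had none called in F1 or F2 by edgeR's exact test, with 1 at an unadjusted p under 0.05 in each.

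**Figure D4:**
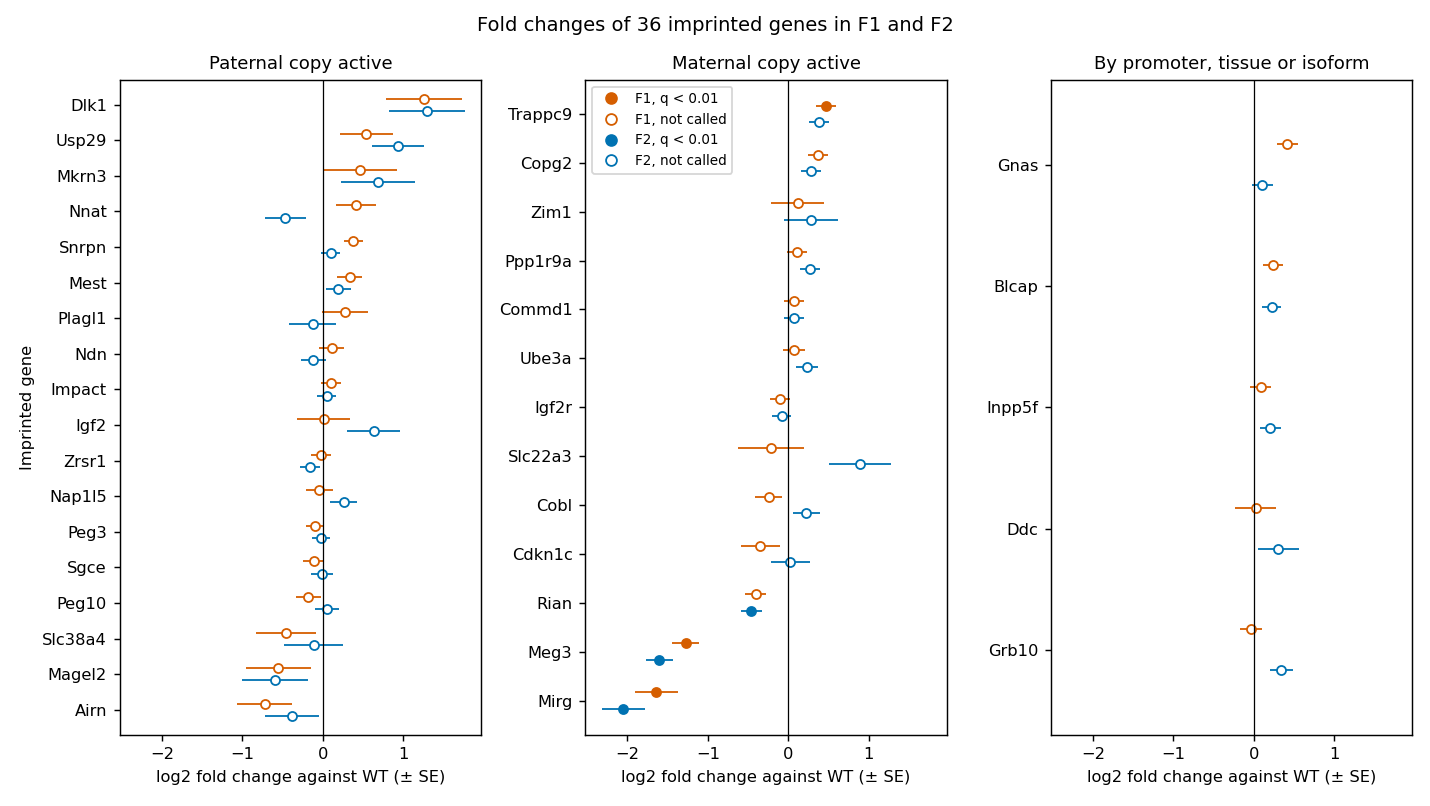
Log2 fold change against WT ± SE (horizontal axis) of the 36 tested imprinted genes (vertical axis), in F1 (orange) and F2 (blue), in panels by the copy known to be active. Filled points have q under 0.01, and only Meg3, Mirg, Rian and Trappc9 have one. Most others lie within 0.5 of 0.

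Trappc9, a subunit of a vesicle tethering complex that is expressed more from the maternal copy in brain, was the only imprinted gene that rose, in F1, where 3.77% of all genes rose, and not in F2, where 3.86% did. It had 46.8 and 43.2 CPM in WT, 58.8 and 65.4 CPM in F1, and 60.2 and 57.0 CPM in F2. Every F1 and F2 library was above both WT libraries, as in 21% of all genes. The rise was 38.0% in F1 (log2 fold change 0.46, SE 0.12, adjusted p = 0.00197 by edgeR), and in F2 the log2 fold change was 0.38 (SE 0.12, adjusted p = 0.0149 by edgeR). Without WT replicate 1, WT replicate 2 or F1 replicate 2 the adjusted p by edgeR in F1 was 0.0127, 0.0534 or 0.051, and the quasi-likelihood test did not call it. Marker sums of other cells were higher too. The 6 astrocyte markers summed to 1215 and 1274 CPM in WT, 1462 and 1793 CPM in F1, and 1989 and 1620 CPM in F2, and the 6 microglia markers to 114.1 and 114.5 CPM, 136 and 159 CPM, and 179 and 153 CPM. The 8 oligodendrocyte markers summed to 1092 and 1981 CPM in WT, 2934 and 2210 CPM in F1, and 1514 and 2862 CPM in F2, so that F1 was above WT and F2 overlapped it. The 9 markers of endothelium and pericytes summed to 213 and 235 CPM in WT and 251 to 313 CPM in the others. None of the markers was at 0, and their part in the rise was not tested.

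On chromosome 6, Mest, a hydrolase-like protein of the paternal copy, and Copg2, a coatomer subunit of the maternal copy, overlap tail to tail. Copg2 had 57.4 and 64.3 CPM in WT, 71.96 and 85.3 CPM in F1, and 74.6 and 72.9 CPM in F2, with no overlap between WT and the other groups. Its log2 fold changes were 0.37 and 0.28 (adjusted p = 0.0225 and 0.104 by edgeR). Mest, at 17.4 and 21.2 CPM in WT, 24.6 and 23.9 CPM in F1, and 22.4 and 21.6 CPM in F2, showed 0.33 and 0.19 (adjusted p = 0.110 and 0.422 by edgeR). The genes share 904 exonic bases on opposite strands, 23.0% of Mest and 20.2% of Copg2, and reads wholly within them were counted to neither if the counting ignored strand.

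In the Snrpn-Ube3a domain of chromosome 7, the mouse counterpart of the Prader-Willi and Angelman region, no gene was called. Snrpn, a splicing-associated protein of neurons, had the highest level per kb of exon among the imprinted genes, 316 CPM per kb in WT, followed by Ndn with 202 and Nap1l5 with 176. Snrpn was at 710 and 680 CPM in WT, 966 and 843 CPM in F1, and 699 and 786 CPM in F2. F1 was above WT in both libraries (log2 fold change 0.38, adjusted p = 0.0141 by edgeR), whereas F2 overlapped WT (0.10, adjusted p = 0.640 by edgeR). Ndn, a MAGE protein that restrains cell growth, had 321 and 348 CPM in WT, 424 and 297 CPM in F1, and 296 and 319 CPM in F2, with overlapping groups. Ube3a, the ubiquitin ligase of the maternal copy in neurons, stayed between 36.3 and 49.2 CPM in all libraries (log2 fold changes 0.07 and 0.23, adjusted p = 0.783 and 0.249 by edgeR). Magel2 and Mkrn3, both ubiquitin ligase proteins or partners, had at most 84 reads in a library and adjusted p-values from 0.348 to 0.606 by edgeR.

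The Peg3 domain, also on chromosome 7, gave 3 unlike genes. Peg3, a zinc finger gene that affects maternal behaviour, was steady, with 279 and 268 CPM in WT, 251 and 259 CPM in F1, and 277 and 263 CPM in F2 (log2 fold changes -0.10 and -0.02, SE 0.11). Usp29, a ubiquitin-specific protease gene that starts next to Peg3, had 4.32 and 4.19 CPM in WT, 3.96 and 8.42 CPM in F1, and 9.87 and 6.39 CPM in F2. F1 replicate 1 lay with WT, and the other F1 and F2 libraries were higher (log2 fold changes 0.54 and 0.93, adjusted p = 0.247 and 0.0272 by edgeR). Without F1 replicate 1 the value in F1 was 1.00 (adjusted p = 0.00462 by edgeR), and without F1 replicate 2 it was -0.10. Zim1 had at most 81 reads and log2 fold changes of 0.11 and 0.28 (adjusted p = 0.890 and 0.634 by edgeR).

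Growth factor genes varied among replicates. Igf2, the fetal growth factor, which in the adult brain is made largely by the meninges, choroid plexus and vessels, had 62.5 and 71.7 CPM in WT, 40.4 and 94.8 CPM in F1, and 140 and 68.4 CPM in F2. F1 enclosed WT, and F2 replicate 1 stood apart. The log2 fold changes were 0.01 and 0.63 (SE 0.33, adjusted p = 1.00 and 0.168 by edgeR). A list of 10 meningeal and fibroblast markers, none of them at 0, summed to 164 and 186 CPM in WT, 106 and 173 CPM in F1, and 220 and 181 CPM in F2. Its lowest and highest libraries were those of Igf2, and its part in the Igf2 values was not tested. Of the 10 markers, Lum and Ogn fell in F1.

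The Igf2 receptor gene Igf2r, which clears Igf2 and is maternally expressed outside neurons, lay between 44.3 and 49.5 CPM in all libraries (log2 fold changes -0.10 and -0.08, SE 0.12, adjusted p = 0.598 and 0.692 by edgeR). H19, the noncoding neighbour of Igf2 that is abundant in the embryo, had 5 to 9 reads per library. Cdkn1c, a cell cycle inhibitor, had 4.68 and 6.41 CPM in WT, 3.73 and 4.96 CPM in F1, and 5.87 and 5.35 CPM in F2 (adjusted p by edgeR 0.337 and 0.990). Phlda2, a regulator of placental growth in the same domain, had 0 to 2 reads. Slc22a3, a transporter of monoamines, had 19 to 75 reads and log2 fold changes of -0.22 and 0.88 (adjusted p = 0.769 and 0.0932 by edgeR), with F1 replicate 1 the lowest library.

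The Grb10 domain holds Grb10, an adaptor that dampens insulin and growth factor signals and is read from the paternal copy in neurons. It was at 27.4 and 25.1 CPM in WT, 24.96 and 26.2 CPM in F1, and 34.6 and 32.1 CPM in F2. Only the F2 libraries were above the others (log2 fold changes -0.04 in F1 and 0.34 in F2, adjusted p = 0.894 and 0.0615 by edgeR). Cobl, which nucleates actin, had 13.9 and 12 CPM in WT, 10.96 and 10.9 CPM in F1, and 14.5 and 15.7 CPM in F2. For both genes F2 was above F1 with an unadjusted p of 0.0061 and 0.0062 and an adjusted p of 0.211 and 0.212 by edgeR. Ddc, the decarboxylase of dopamine and serotonin synthesis, had 72 to 88 reads and adjusted p = 0.997 and 0.439 by edgeR.

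Nnat and its host Blcap lie on chromosome 2. Nnat, a small membrane protein of the developing nervous system that is read from the paternal copy, had 274 and 268 CPM in WT, 493 and 228 CPM in F1, and 173 and 220 CPM in F2. The WT libraries were close, F1 lay on both sides of them and F2 below. Between F2 and F1 the log2 difference was -0.88 (SE 0.25, adjusted p = 0.0462 by edgeR), the lowest adjusted p of any imprinted gene in that comparison, and without F1 replicate 1 it was -0.22. Plagl1, a zinc finger transcription factor, was likewise highest in F1 replicate 1, with 16.5 and 16.1 CPM in WT, 27.5 and 11.9 CPM in F1, and 13.01 and 16.8 CPM in F2. The same library had the highest Sst, 217 CPM beside 82.2 CPM in F1 replicate 2, and the highest sum of 7 interneuron markers, 853 CPM beside 616 to 791 CPM elsewhere. Without Sst the sum was 635 CPM, beside 654 CPM in F2 replicate 2, the highest. None of these markers was at 0, and their part in the Nnat and Plagl1 values was not tested. Blcap was steady, from 79.2 to 103 CPM (log2 fold changes 0.23 and 0.22, adjusted p = 0.164 and 0.202 by edgeR).

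**Figure D5:**
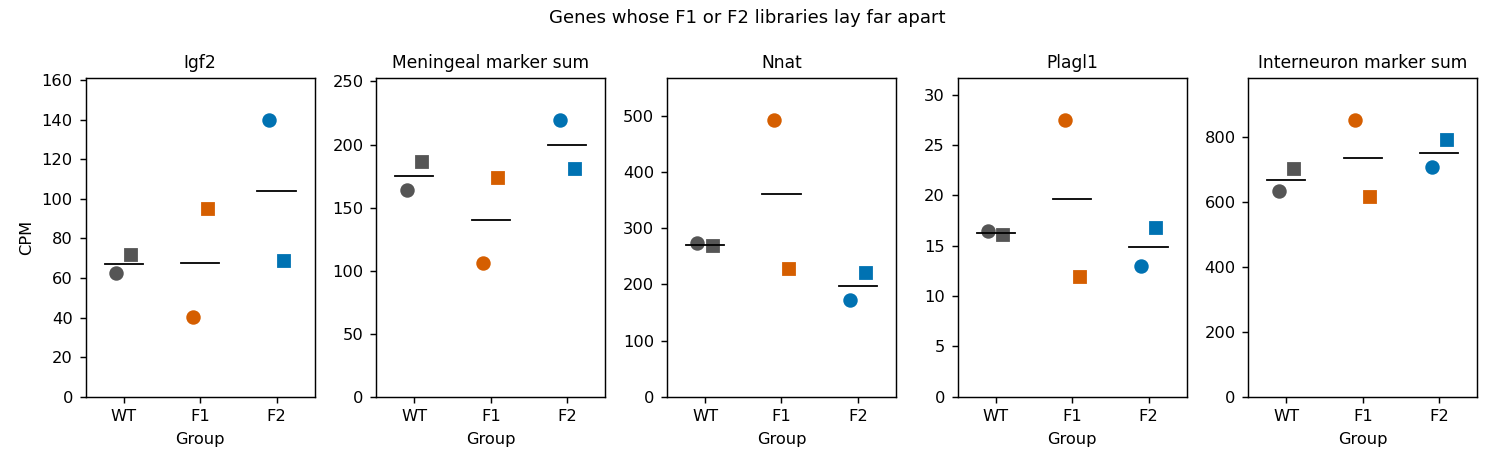
CPM of Igf2, of the sum of 10 meningeal markers, of Nnat, of Plagl1 and of the sum of 7 interneuron markers (vertical axes from 0) in WT, F1 and F2. Circles are replicate 1, squares replicate 2 and lines group means. F1 replicate 1 is lowest in Igf2 and the meningeal sum and highest in Nnat, Plagl1 and the interneuron sum.

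Gnas, the stimulatory G protein locus of chromosome 2 with several promoters of opposite imprinting, had 347 and 324 CPM in WT, 471 and 425 CPM in F1, and 323 and 398 CPM in F2. F1 was above WT (log2 fold change 0.42, SE 0.13, adjusted p = 0.0117 by edgeR) and F2 overlapped it (0.10, adjusted p = 0.635 by edgeR). The counts pool the transcripts of the locus, and 8.83% of its exonic bases are shared with the antisense RNA Nespas and 13.1% with another gene on the opposite strand. Snrpn and Gnas were the imprinted genes called by DESeq2 in F1 beyond the 3 called by edgeR's exact test.

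The other clusters held no called gene. Peg10, derived from a retrotransposon, its neighbour Sgce, the epsilon sarcoglycan, and Ppp1r9a, the actin-binding neurabin, had log2 fold changes between -0.18 and 0.27. Nap1l5, a relative of the nucleosome assembly proteins, had 311 and 355 CPM in WT, 378 and 269 CPM in F1, and 349 and 447 CPM in F2, with wide replicates in both F1 and F2. Zrsr1, a splicing factor gene within an intron of Commd1, and Commd1, which acts in copper and protein trafficking, had log2 fold changes between -0.16 and 0.07. In the annotation used here for positions, Commd1 shares 29.2% of its exonic bases with B3gnt2 on the same strand. Reads wholly within exons of both would be counted to neither. Impact, a regulator of translation under stress, lay from 197 to 235 CPM, with log2 fold changes of 0.10 and 0.05 (adjusted p = 0.632 and 0.849 by edgeR). Inpp5f, a phosphoinositide phosphatase, showed 0.08 and 0.20 (adjusted p = 0.710 and 0.266 by edgeR). Slc38a4, an amino acid transporter, had at most 32 reads. Asb4, an ankyrin repeat protein, and Calcr, the calcitonin receptor, had at most 12 and 2 reads.

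Compared directly, F2 and F1 gave no called imprinted gene by edgeR's exact test, while 0.74% of all genes were called. The quasi-likelihood test and DESeq2 also called 0, beside 2 and 104 genes in all. Of the 36, 6 had an unadjusted p under 0.05 by edgeR's exact test (Snrpn, Slc22a3, Grb10, Cobl, Gnas and Nnat). The share of all genes at that unadjusted cutoff is not given here. The values depended on single F1 libraries. For Nnat the log2 difference was -0.88 with all libraries, -0.22 without F1 replicate 1 and -1.325 without F1 replicate 2. For Meg3 it was -0.32, -0.0026 and -0.59.

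Of 26 other imprinted genes tested, 2 fell and 0 rose in F1, and 1 fell in F2, Rtl1 being the one called in both and Sfmbt2, a Polycomb-related gene, the other in F1 (log2 fold change -1.31, adjusted p = 9.54e-07 by edgeR). Among 17 factors that set or keep imprints, 3 fell in F1 and 2 in F2, with none higher, whereas 8.54% of all genes fell in F1 and 8.1% in F2. The one called in F1 alone was Dnmt3a, a DNA methyltransferase (log2 fold change -0.43, adjusted p = 0.00239 by edgeR). Zfp57, the imprint-keeping zinc finger protein, had 24.1 and 22.0 CPM in WT, 12.8 and 10.3 CPM in F1, and 11.7 and 10.4 CPM in F2, with no overlap. It fell in both (log2 fold changes -1.0 and -1.06, adjusted p = 4.35e-07 and 1.00e-07 by edgeR). Setdb1, the histone H3 lysine methyltransferase that acts with it, had 87.1 and 71.3 CPM in WT, 49.8 and 49.1 CPM in F1, and 49.4 and 48.6 CPM in F2 (log2 fold changes -0.68 and -0.69, adjusted p = 4.54e-06 and 3.26e-06 by edgeR). Of 17 genes that host or neighbour the imprinted clusters, 3 rose in F1 and 1 in F2, beside the 3.77% and 3.86% of all genes that rose, and Gabrg3, a GABA-A receptor subunit gene beside the Snrpn-Ube3a domain, rose in both (log2 fold changes 0.64 and 0.63, adjusted p = 0.00561 and 0.00705 by edgeR). Also called in F1 were Gabra5, another GABA-A receptor subunit gene (log2 fold change 0.52, adjusted p = 0.000485 by edgeR), and Mas1, a receptor gene beside Igf2r (log2 fold change 1.17, adjusted p = 8.82e-09 by edgeR). Mas1 was lower in F2 than in F1 (log2 difference -1.14, adjusted p = 3e-07 by edgeR). It was the 1 of the 17 called in that comparison, beside 0.74% of all genes. Sfmbt2, Dnmt3a, Gabra5, Mas1, Trpc6 and Sst were chosen after their values were seen. The call of Gabrg3 held in F1 under 8 and in F2 under 9 of the 17 alternatives tried.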

How the data were processed

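The authors dissected the ventral dentate gyrus from cryosections, prepared polyA libraries with Illumina's TruSeq RNA kit, aligned single-end reads of 50 bp to mm9 with TopHat (TopHat2 2.0.2 in the submitters' processing notes) and deposited HTSeq counts per gene in the intersection-strict mode, without normalization. That mode drops reads that leave annotated exons or lie wholly in exons of several genes. The annotation and strand setting are not given in the sources used here, and bisulfite samples were not analysed here.

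Counts were filtered with filterByExpr, TMM-scaled and tested with edgeR 4.0.16 (R 4.3.3; exact test), using common (0.0113, a coefficient of variation of 10.6%) and then tagwise dispersion over the 6 libraries. The threshold was q under 0.01. The procedure was tested on simulated data. Replicates of a group differed by more than counting noise. Every listed imprinted gene in the files is named, as are genes of 3 further lists (other imprinted genes, imprint maintenance factors, neighbours) called in F1 and F2 in the same direction. Marker lists are given by sums and defining markers. The members and lists were chosen with earlier results of these data known. Dcn is both in the meningeal and the other imprinted list. Positions and exon lengths are those of GENCODE M1 on NCBIM37 (mm9). Alternatives were the quasi-likelihood test and the likelihood-ratio test of edgeR, each also with a replicate block, DESeq2 1.42.0, other scalings, filters, dispersions and thresholds, and leaving out each library. At this depth the number of libraries, rather than of reads, limits the precision for all but the lowest counts.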

Additional observations from a re-analysis of the deposited data

How the results depend on the processing

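Meg3 and Mirg were called against WT under every alternative tried. The number of imprinted genes called was 5 in F1 with DESeq2, where 1635 genes in all were called. With dispersion from the 2 groups compared it was 7 in F2, where 2599 genes in all were called. At q under 0.05 it was 8, 6 and 1 in F1, F2 and F2 against F1, and 5 were called in F1 and F2 in the same direction. Leaving out a library gave 2 to 6 in F1, 2 to 7 in F2, 0 to 5 in F2 against F1 and 2 to 5 in both. With F1 replicate 1 left out, Usp29, Copg2, Meg3, Rian, Mirg and Trappc9 were called in F1, and with F1 replicate 2 left out, Snrpn, Plagl1, Nnat, Dlk1, Meg3 and Mirg. With either F1 library left out, Usp29, Nnat, Dlk1 and Trappc9 were also called in F2. An F1 library enters F2 against WT only through the shared dispersion, the filter and the scaling. Where a group was left with 1 library, it was assumed to vary like the others.

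Over all genes, the quasi-likelihood test gave 1029 calls in F1, 997 in F2 and 2 in F2 against F1, q under 0.05 gave 3623, 3606 and 230, and leaving out a library gave 988 to 2043, 703 to 2585 and 52 to 223. The replicate numbers did not pair the libraries, since the differences between replicates correlated at -0.0269, -0.083 and -0.182 across genes. With the replicate number as a block, the likelihood-ratio test called 3, 2 and 0 imprinted genes in F1, F2 and F2 against F1, and the quasi-likelihood test 2, 2 and 0 (Rian lost its call in F2 under both, Trappc9 in F1 under the second), with 848, 758 and 9 calls over all genes. A block with crossed F2 numbers, chosen after seeing the data, gave 1 imprinted gene and 233 genes in all in F2 against F1. The cause of these shifts was not tested. No scaling moved the median of all genes by more than 0.0247 on the log2 scale. Of genes with few reads, such as Dlk1, differences were poorly resolved.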

Other observations

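Reads on small RNA loci inside the imprinted domains were looked at after the values of their hosts were seen. Between the start of Meg3 and the end of Mirg the files list 53 miRNA names, 43 of them with a read. Their reads summed to 145 and 140 in WT, 67 and 24 in F1, and 14 and 31 in F2. All F1 and F2 libraries were thus below both WT libraries, as in 23.7% of all genes tested. Such reads come from longer RNA that crosses a hairpin and do not measure the mature miRNAs. The 3 snoRNA names between Ube3a and Snrpn had 129 and 80 reads in WT, 41 and 52 in F1, and 43 and 44 in F2, again with no overlap, while Snrpn itself was not lower in F1 or F2. These sums were not tested.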
